A study of Mus musculus with 8 samples.

Results

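The nuclear-encoded subunits of the respiratory chain were examined in RNA-seq of whole aortas. Members were the genes whose symbol followed the naming of complex I (Nduf with a letter a, b, c, s or v and a digit), complex II (Sdha to Sdhd), complex III (Uqcr), complex IV (Cox4 to Cox8) or ATP synthase (Atp5), with pseudogene symbols left out. By this rule 88 of 41186 gene symbols in the table were members, 40 in complex I, 4 in complex II, 8 in complex III, 19 in complex IV and 17 in complex V. A total of 83 members reached at least 1 FPKM (fragments scaled to exon length and sequencing depth) in at least 3 libraries and were tested. Ndufa11b, Cox6a2, Cox6b2, Cox7b2 and Cox8c did not.

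The study compared ApoE-/- mice, which lack apolipoprotein E and develop atherosclerosis, with NPRC-/-ApoE-/- mice, which in addition carry a CRISPR-made frameshift in exon 1 of Npr3, the gene of natriuretic peptide receptor C. The deletion was systemic, on a C57BL/6 background, and both groups were described as littermates that received a Western diet for 12 weeks. The ApoE-/- mice were bought as males at 8 weeks of age, and the ages of the sequenced mice at collection were not given in the sources used here. Of the 8 libraries, 5 were titled ApoE-/- and 3 NPRC-/-ApoE-/-, whereas the methods name 5 mice of each genotype for RNA-seq. The genotype entry of the sample records conflicted with the title in 4 of them. It named NPRC-/-ApoE-/- for the libraries titled ApoE-/- 4 and ApoE-/- 5, and ApoE-/- for those titled NPRC-/-ApoE-/- 1 and NPRC-/-ApoE-/- 2. Every comparison was therefore made by title and again by genotype entry, 5 against 3 libraries each time, and libraries are named by title. Npr3 stood at 1.69, 0.93, 0.62, 1.01 and 1.67 FPKM in the libraries titled ApoE-/- 1 to 5 and at 1.18, 1.39 and 1.13 FPKM in those titled NPRC-/-ApoE-/- 1 to 3. These levels overlapped in both groupings, and a frameshift need not lower a transcript, so they did not show which label was right.

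The libraries held 62969165 to 86693276 counts. Smooth muscle markers, which define the aortic media, summed to 1350 to 3000 FPKM, and endothelial markers to 101 to 124 FPKM. Markers of brown adipocytes summed to 122 to 536 FPKM, among them Ucp1, the uncoupling protein of brown fat, at 71.8 to 343 FPKM. The tissue labelled aorta thus held transcripts of brown fat in every library, and in a whole-tissue sample fewer cells of a type and less RNA per cell cannot be told apart.

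The respiratory chain passes electrons from NADH through complex I, or from succinate through complex II, to coenzyme Q, then through complex III and cytochrome c to complex IV, which reduces oxygen. Complexes I, III and IV pump protons, and ATP synthase, or complex V, uses the resulting gradient to make ATP. Several subunits of complex IV exist as a general form and a form of heart, skeletal muscle and brown fat, tissues dense in mitochondria.

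No member passed an unadjusted p of 0.05 in edgeR's quasi-likelihood test by title, where 13.6% of the 20506 rows tested did. By genotype entry it was again 0 of 83 members, where 1.31% of all rows passed. No row of the table passed an adjusted p of 0.05 in either grouping, and the smallest adjusted p of a member was 0.418 by title and 1 by genotype entry. At an unadjusted p of 0.05, DESeq2 also called 0 members by title, where it called 16.7% of all rows, and 1 by genotype entry, where it called 1.89%. By title, limma-voom with quality weights called 3 members and 26.4% of all rows. With 1 library left out, edgeR called up to 4 members by title (without ApoE-/- 1, where 13.3% of all rows passed) and up to 3 by genotype entry (without ApoE-/- 4, where 3.56% did). The FPKM of the groups did not separate for any member in either grouping, against 7.25% of all rows by title and 0.97% by genotype entry. With a fold over 2 or under 0.5 asked for as well, 0 members remained by title, where 3.47% of all rows did, and 0 by genotype entry, where 0.463% did. The median log2 fold change of NPRC-/-ApoE-/- over ApoE-/- over the 83 members was -0.01 by title, with 38 members above 0 and 45 below, and the median over all rows was also -0.01. By genotype entry it was -0.03, with 37 above 0 and 46 below.

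The intervals give the size of change that the libraries could still hold. In 71 of the 83 members the 95% interval of the log2 fold change by title lay within 1 log2 unit of 0, so that a change of 2-fold or more was outside it. The same held for 66.3% of all rows. By genotype entry it held for 73 members and for 72.1% of all rows. The 12 members with a wider interval by title were Ndufs6b, Ndufb4c, Ndufa4l2, Ndufa12 and Ndufb3 of complex I, Cox8a, Cox8b, Cox7b, Cox7c and Cox6c2 of complex IV, and Atp5g1 and Atp5k of complex V.

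**Figure D1:**
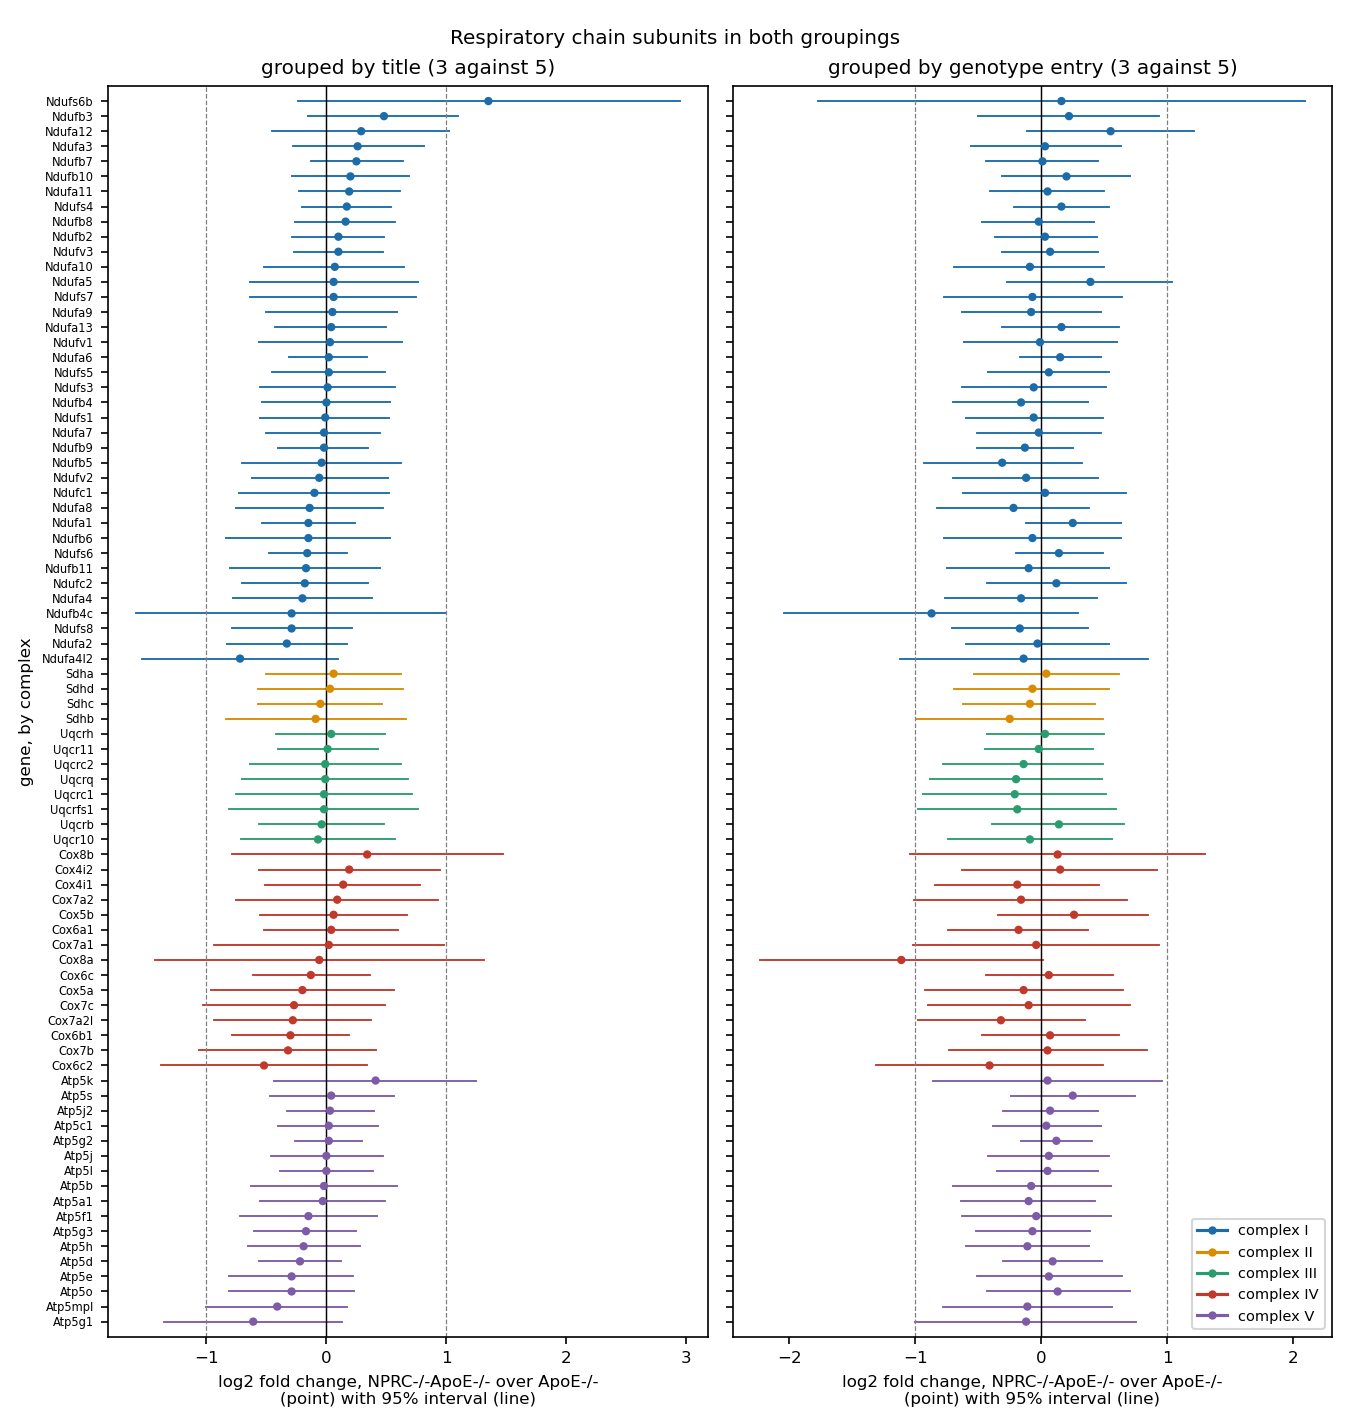
Log2 fold change of NPRC-/-ApoE-/- over ApoE-/- (point) with its 95% interval (line) for 82 of the 83 members tested, coloured by complex and ordered by their value by title, with the libraries grouped by title on the left and by genotype entry on the right. All lines cross 0 in both panels, and in 70 members on the left and 72 on the right the whole line lies between the dashed lines at -1 and 1.

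Libraries of the same title differed in the level of the members. Members took 0.358, 0.641, 0.3, 0.368 and 0.49% of all counts in ApoE-/- 1 to 5 and 0.477, 0.418 and 0.355% in NPRC-/-ApoE-/- 1 to 3. Log2 CPM here are counts scaled to the library total times edgeR's TMM factor. On this scale library ApoE-/- 2 was the highest of the 8 for 59 of the 83 members (71.1%), and for 11.1% of all rows tested. Library ApoE-/- 3 was the lowest for 35 members (42.2%) and ApoE-/- 1 for 24 (28.9%), against 13.4% and 8.09% of all rows. With library totals alone, ApoE-/- 3 was the lowest for 42 members (50.6%, against 18.9% of all rows). ApoE-/- 1 was then the lowest for only 8 (9.64%, against 4.66%). Relative to each gene's own mean, the members stood on average at -0.24, 0.48, -0.32, -0.06 and 0.13 log2 CPM in ApoE-/- 1 to 5 and at 0.11, -0.02 and -0.07 in NPRC-/-ApoE-/- 1 to 3. The highest and the lowest of these 8 means both came from libraries that title and genotype entry alike call ApoE-/-. They kept their places under median-ratio scaling, where ApoE-/- 2 stood at 0.49 and ApoE-/- 3 at -0.33, and with library totals alone, where they stood at 0.53 and -0.43. The median SD over the 5 libraries titled ApoE-/- was 0.42 log2 CPM for the members and 0.31 for all rows, and over the 3 titled NPRC-/-ApoE-/- it was 0.22 and 0.27.

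**Figure D2:**
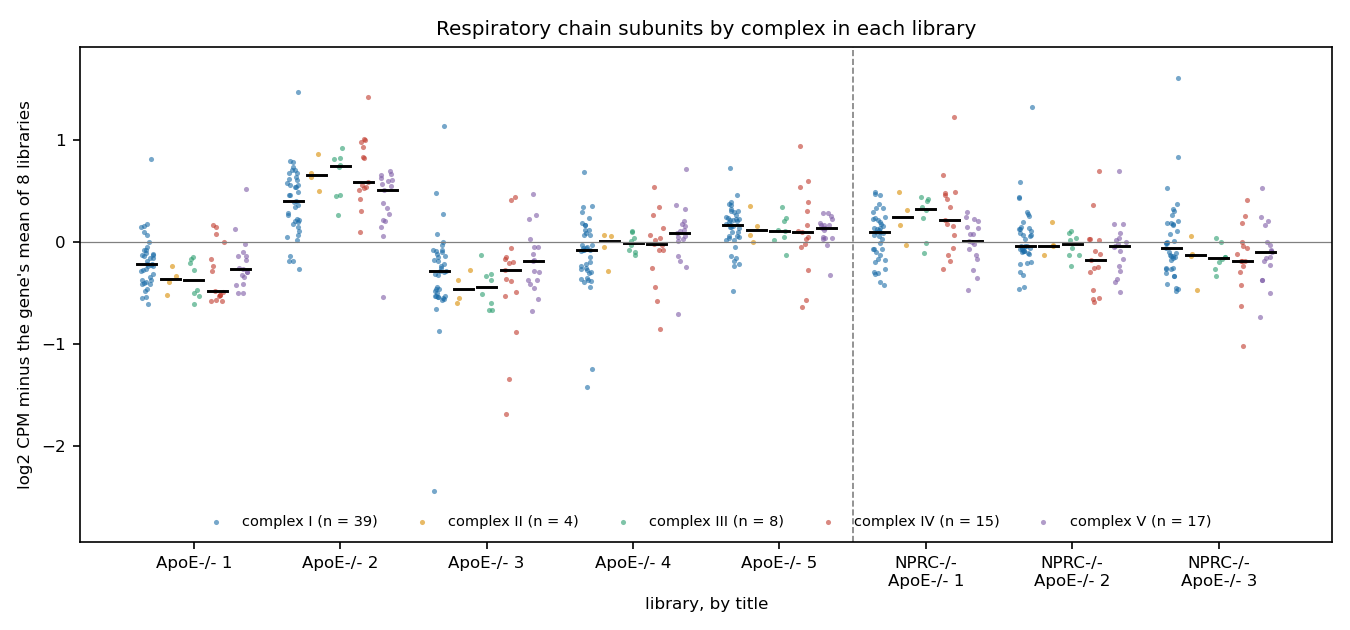
Log2 CPM of each tested member minus its mean over the 8 libraries (points), coloured by complex, with the median of each complex as a black bar, in the 5 libraries titled ApoE-/- and, right of the dashed line, the 3 titled NPRC-/-ApoE-/-. The bars of all 5 complexes lie above 0 in ApoE-/- 2 and below 0 in ApoE-/- 1 and ApoE-/- 3.

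The complexes shared this order of libraries to different degrees. In ApoE-/- 2 the mean deviation was 0.39 for complex I, 0.67 for complex II, 0.65 for complex III, 0.70 for complex IV and 0.38 for complex V. In ApoE-/- 3 it was -0.31, -0.45, -0.45, -0.39 and -0.18 in the same order. All 4 subunits of complex II, 7 of 8 of complex III, 11 of 15 of complex IV, 12 of 17 of complex V and 25 of 39 of complex I were highest in ApoE-/- 2. The typical span from the lowest to the highest library was 2.03-fold in complex I, 2.23-fold in complex II, 2.45-fold in complex III, 2.66-fold in complex IV and 1.92-fold in complex V, against 1.96-fold over all rows.

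Promoters were read for what the members share in sequence. RefSeq promoter windows of 300 bases (build GRCm38.p6, 250 before and 50 after the start site) were matched for 68 of the 88 members, 2 of them by an older symbol. Those without a match included Atp5a1, Atp5mpl, Cox4i1, Cox4i2, Cox6a2, Cox6c, Cox6c2, Cox8c, Ndufa11b, Ndufa2, Ndufa4l2, Ndufb4c, Ndufb9, Ndufs1, Ndufs6b, Sdhc, Uqcrb, Uqcrc2 and Uqcrq. The core of the site of NRF1, a regulator of respiratory genes, which reads GCGC, any base and TGCGC, occurred on either strand in 17 of the 68 (25%), and in 5.19% of all 27025 genes with a window, which include non-coding genes. The letters CCGGAAG of GABPA, also called NRF2, occurred in 16 (23.5%, against 9.93%), AAGATGG of YY1 in 11 (16.2%, against 7.28%) and AAGGTCA of the oestrogen-related receptor ERRA in 8 (11.8%, against 5.38%). At least 1 of the 4 was present in 39 members (57.4%) and in 24.5% of all genes. The upstream part of the window had a median GC content of 56.4% in the members and 52.4% over all genes. Such matches describe the sequence and show no binding. The stretches of 3 subunits of complex IV are shown, to set the most abundant member beside the tissue-restricted forms with the highest levels. They are Cox6a1 (chr5:115348959-115349208, minus strand), Cox8b (chr7:140900447-140900696, minus strand) and Cox7a1 (chr7:30183921-30184170, plus strand), each as the 250 bases before the start site, 5′ to 3′ in the direction of the gene, with matches to these motifs in capitals.
Cox6a1: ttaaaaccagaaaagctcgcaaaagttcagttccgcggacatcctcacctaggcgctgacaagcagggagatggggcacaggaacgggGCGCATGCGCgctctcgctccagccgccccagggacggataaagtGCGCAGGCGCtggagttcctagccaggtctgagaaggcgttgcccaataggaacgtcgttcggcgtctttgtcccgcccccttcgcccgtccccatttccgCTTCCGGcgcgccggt
Cox8b: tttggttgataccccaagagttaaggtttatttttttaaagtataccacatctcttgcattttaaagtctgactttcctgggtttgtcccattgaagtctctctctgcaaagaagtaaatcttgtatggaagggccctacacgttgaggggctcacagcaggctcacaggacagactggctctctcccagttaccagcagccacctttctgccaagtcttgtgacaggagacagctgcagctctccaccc
Cox7a1: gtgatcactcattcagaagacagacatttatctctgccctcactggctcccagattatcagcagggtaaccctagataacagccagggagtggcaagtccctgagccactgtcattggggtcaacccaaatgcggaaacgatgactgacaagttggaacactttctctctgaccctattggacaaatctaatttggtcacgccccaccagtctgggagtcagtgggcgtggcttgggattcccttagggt
The Cox6a1 stretch held the NRF1 letters from positions -162 and -117 and the GABPA letters from position -16, counted back from the start site. None of the 4 motifs was found in the stretches of Cox8b and Cox7a1. Among the 13 matched members of complex IV, the NRF1 letters occurred in 1, Cox6a1, and the GABPA letters in 3. Of the general forms paired with Cox8b and Cox7a1, Cox8a held the GABPA letters in its window, and Cox7a2 held none of the motifs.

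Complex I, NADH dehydrogenase, had the most members, and their mean levels started at 1.3 FPKM for Ndufs6b, with a median of 8.23. Ndufa8, an accessory subunit of the membrane arm, stood at 19.2, 42.6, 22.7, 25.6 and 28.5 FPKM in ApoE-/- 1 to 5 and at 32.9, 24.3 and 17.4 FPKM in NPRC-/-ApoE-/- 1 to 3. The titled groups overlapped, and ApoE-/- 2 was highest. Its log2 fold change by title was -0.14 (95% interval -0.75 to 0.47). The core subunits Ndufs1, Ndufs7, Ndufs8, Ndufv1 and Ndufv2, which carry the flavin and the iron-sulfur clusters, and Ndufs3, a core subunit without either, had log2 fold changes by title between -0.29 (Ndufs8) and 0.06 (Ndufs7). Ndufs8 shares its row with Aldh3b1, so its value is that of both genes.

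The complex I members furthest from 0 by title were Ndufs6b and Ndufa4l2. Ndufs6b, a second copy of the Ndufs6 gene whose reads may be split with it, stood at 1.78, 1.13, 0.1, 0.34 and 0.86 FPKM in ApoE-/- 1 to 5 and at 0.9, 2.43 and 2.83 FPKM in NPRC-/-ApoE-/- 1 to 3. Its log2 fold change was 1.35 (95% interval -0.24 to 2.95, unadjusted p = 0.0819, adjusted p = 0.418, edgeR) by title and 0.16 (-1.77 to 2.09) by genotype entry. Without ApoE-/- 1 the value by title was 1.81 (unadjusted p = 0.0306, edgeR) and without NPRC-/-ApoE-/- 1 it was 1.72 (unadjusted p = 0.0439, edgeR). The highest values were those of NPRC-/-ApoE-/- 2 and 3, but NPRC-/-ApoE-/- 1 lay inside the other group. The counts of Ndufs6b ran from only 4 in ApoE-/- 3 to 103 in NPRC-/-ApoE-/- 3. Ndufs6 itself, an accessory subunit with a zinc site, spanned only 7.05 to 10.1 FPKM over the 8 libraries, and its log2 fold change by title was -0.16.

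Ndufa4l2 is a relative of Ndufa4 known as a target of hypoxia signalling. It stood at 2.58, 3.05, 6.0, 4.5 and 2.21 FPKM in ApoE-/- 1 to 5 and at 2.24, 2.39 and 2.06 FPKM in NPRC-/-ApoE-/- 1 to 3. Its log2 fold change was -0.72 (95% interval -1.54 to 0.10, unadjusted p = 0.0837, adjusted p = 0.418, edgeR) by title and -0.14 (-1.12 to 0.85) by genotype entry. Without ApoE-/- 5 the value by title was -0.87 (unadjusted p = 0.032, edgeR). ApoE-/- 3 and ApoE-/- 4 were high, and ApoE-/- 5 lay among the 3 other-titled libraries. The summed macrophage markers were likewise highest in ApoE-/- 3 (1720 FPKM) and ApoE-/- 4 (1840 FPKM), against 295 to 1200 FPKM in the other 6 libraries, and their part in the level of Ndufa4l2 was not tested. Ndufa4, which is now counted with complex IV in spite of its name, was highest in ApoE-/- 2 at 16.2 FPKM and lay between 7.19 and 9.88 FPKM in the other 7 libraries.

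Ndufb3, of the membrane arm, stood at 8.12, 9.59, 4.25, 5.88 and 11.1 FPKM in ApoE-/- 1 to 5 and at 8.49, 11.5 and 11.5 FPKM in NPRC-/-ApoE-/- 1 to 3, with a log2 fold change by title of 0.48 (-0.15 to 1.1, unadjusted p = 0.113, edgeR), and of 0.62 without ApoE-/- 5 (unadjusted p = 0.0468, edgeR). Ndufa12, an accessory subunit added late in assembly, had the smallest p of complex I by genotype entry. It stood at 2.81, 3.48, 1.72, 2.42 and 2.83 FPKM in the libraries entered as ApoE-/- (ApoE-/- 1 to 3 and NPRC-/-ApoE-/- 1 and 2) and at 2.17, 4.29 and 4.93 FPKM in those entered as NPRC-/-ApoE-/- (ApoE-/- 4 and 5 and NPRC-/-ApoE-/- 3). Its log2 fold change was 0.55 (-0.11 to 1.21, unadjusted p = 0.0878, edgeR) in that grouping and 0.29 (-0.45 to 1.02) by title. ApoE-/- 4 overlapped the lower group in the grouping by entry, and without it the value was 0.84 (unadjusted p = 0.0112, adjusted p = 0.858, edgeR). Over all 39 tested members of complex I the median log2 fold change was 0.01 by title, with 20 above 0 and 19 below, and -0.02 by genotype entry.

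The row of Ndufs4, an accessory subunit whose loss is a known cause of complex I deficiency, needs care. The row with the most counts (GRCm38 chr13:114290834-114307581, plus strand) listed 1 assembled transcript that is not an annotated one of this gene and lies on the strand opposite to it, and it spanned 1.38 to 2.24 FPKM. Its value by the member rule is thus not that of the annotated Ndufs4 transcript. The row of the 6 annotated transcripts (chr13:114287795-114388258, minus strand) stood at 3.74, 6.86, 4.49, 4.41 and 4.83 FPKM in ApoE-/- 1 to 5 and at 5.14, 4.53 and 4.12 FPKM in NPRC-/-ApoE-/- 1 to 3. The 2 rows differed in sign and neither passed the test, with log2 fold changes by title of 0.17 and -0.06, and ApoE-/- 2 was the highest library only in the second. Ndufb4c and Ndufa11b are copies of Ndufb4 and Ndufa11, so the reads of each pair may have been split between their rows.

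Complex II, succinate dehydrogenase, also belongs to the tricarboxylic acid cycle and is encoded by 4 genes in the nucleus. Sdha, the flavoprotein that oxidises succinate, stood at 50.1, 82.6, 36.1, 44.0 and 76.9 FPKM in ApoE-/- 1 to 5 and at 56.2, 65.2 and 55.1 FPKM in NPRC-/-ApoE-/- 1 to 3. Sdhb, the iron-sulfur subunit, stood at 23.8, 61.4, 23.6, 32.7 and 36.5 against 46.6, 30.2 and 22.4 FPKM. Sdhc, a membrane anchor, stood at 12.7, 25.6, 12.4, 15.8 and 17.0 against 18.2, 15.6 and 13.6 FPKM. In all 3 genes the libraries titled NPRC-/-ApoE-/- lay within, or for Sdhb just under, the range of those titled ApoE-/-. Sdhd, the other anchor, stood at 37.1, 74.0, 27.9, 41.4 and 53.3 against 56.7, 44.7 and 39.2 FPKM. The log2 fold changes by title were 0.06 for Sdha (-0.50 to 0.62), -0.09 for Sdhb (-0.84 to 0.66), -0.05 for Sdhc (-0.57 to 0.46) and 0.03 for Sdhd (-0.57 to 0.64). By genotype entry the 4 values ran from -0.25 (Sdhb) to 0.04 (Sdha). All 4 intervals lay within 1 log2 unit of 0 in both groupings.

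Complex III, the cytochrome bc1 complex, had the narrowest range of the 5 complexes by title. Its 8 log2 fold changes ran from -0.07 (Uqcr10) to 0.04 (Uqcrh), with all intervals between -0.81 and 0.76. Uqcrc2, a core protein of the matrix side, stood at 37.8, 71.8, 24.5, 37.3 and 48.0 FPKM in ApoE-/- 1 to 5 and at 49.9, 43.1 and 35.2 FPKM in NPRC-/-ApoE-/- 1 to 3. Uqcr10, a small subunit, stood at 30.6, 72.0, 30.9, 42.1 and 44.7 against 53.3, 35.2 and 35.2 FPKM. Both were highest in ApoE-/- 2, and the titled groups overlapped. Uqcrfs1, the Rieske iron-sulfur protein, had the widest span of the complex, from 18.02 FPKM in ApoE-/- 3 to 59.7 FPKM in ApoE-/- 2, or 3.32-fold. Uqcrc1, the other core protein, ran from 16.1 FPKM in ApoE-/- 1 to 42.8 FPKM in ApoE-/- 2, and Uqcrb, which binds near the coenzyme Q site, from 10.8 FPKM in ApoE-/- 3 to 24.7 FPKM in ApoE-/- 2. By genotype entry the median of the complex was -0.12, with 6 of 8 below 0, and the smallest unadjusted p was 0.523 (Uqcrc1, edgeR).

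Complex IV, cytochrome c oxidase, held the most abundant member and had the widest typical span between libraries. Cox6a1, the general form of subunit 6a, whose promoter stretch carried the NRF1 and GABPA letters, had the highest mean level of all members. The margin was small, with means of 112 FPKM for Cox6a1, 111 for Atp5b and 107 for Atp5a1 of complex V. Cox6a1 stood at 78.9, 166, 97.4, 101 and 114 FPKM in ApoE-/- 1 to 5 and at 152, 97.2 and 90.7 FPKM in NPRC-/-ApoE-/- 1 to 3. Its log2 fold change by title was 0.04 (-0.52 to 0.60). Cox4i1, the general form of subunit 4, was highest in NPRC-/-ApoE-/- 1 at 75.6 FPKM and ApoE-/- 2 at 71.0 FPKM, and lay between 33.4 and 51.5 FPKM in the other 6. Cox6b1, on the intermembrane side, stood at 58.7, 93.6, 52.6, 62.9 and 83.04 against 72.1, 43.1 and 52.5 FPKM, and its log2 fold change of -0.30 (-0.79 to 0.19) by title had the smallest p of the complex, 0.204 before adjustment (edgeR). Cox7b and Cox6c2 had log2 fold changes by title of -0.32 (-1.06 to 0.41) and -0.52 (-1.38 to 0.34). Cox6c2 is a copy of Cox6c with which reads may be shared. Cox7a2l, a relative of Cox7a2 known from work on supercomplexes of complexes III and IV, stood at 19.2, 42.5, 34.8, 28.6 and 28.3 against 35.3, 23.2 and 16.8 FPKM. Its log2 fold change was -0.28 (-0.94 to 0.37).

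Cox8a, the general form of subunit 8, split the libraries sharply but along neither label. It stood at 84.6, 203, 48.9, 66.1 and 50.04 FPKM in ApoE-/- 1 to 5 and at 173, 50.1 and 34.3 FPKM in NPRC-/-ApoE-/- 1 to 3. Libraries ApoE-/- 2 and NPRC-/-ApoE-/- 1 were high, and the span was 5.92-fold. By title its log2 fold change was -0.06 (-1.43 to 1.31, edgeR). By genotype entry both high libraries fall in the ApoE-/- group, and the log2 fold change was -1.11 (-2.23 to 0.01, unadjusted p = 0.0604, adjusted p = 1, edgeR). DESeq2 put its unadjusted p at 0.0266 with an adjusted p of 1, and in edgeR the value was -1.29 both without ApoE-/- 3 (unadjusted p = 0.03) and without NPRC-/-ApoE-/- 2 (unadjusted p = 0.0265). The groups still overlapped by entry, since the libraries entered as ApoE-/- ran from 48.9 to 203 FPKM and those entered as NPRC-/-ApoE-/- from 34.3 to 66.1 FPKM.

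Forms restricted to certain tissues or conditions were compared with their general forms as log2 ratios of FPKM within each library, over 6 pairs. Cox8b, whose stretch held none of the motifs, had a mean of 77.5 FPKM beside 88.8 FPKM for Cox8a. It stood at 74.2, 92.9, 19.5, 35.4 and 137 FPKM in ApoE-/- 1 to 5 and at 79.5, 109.97 and 72.3 FPKM in NPRC-/-ApoE-/- 1 to 3. ApoE-/- 3 and ApoE-/- 4 were low. Cox8b made up 46.7, 31.4, 28.5, 34.9 and 73.2% of the summed FPKM of the pair in ApoE-/- 1 to 5 and 31.4, 68.7 and 67.8% in NPRC-/-ApoE-/- 1 to 3. It was thus the larger form in ApoE-/- 5, NPRC-/-ApoE-/- 2 and NPRC-/-ApoE-/- 3. The log2 ratio was -0.42 ± 1.13 (SD, n = 5) in the libraries titled ApoE-/- and 0.36 ± 1.29 (SD, n = 3) in those titled NPRC-/-ApoE-/-, a difference of 0.78 (exact permutation test, two-sided, p = 0.5). By genotype entry the difference was 1.07 (exact permutation p = 0.214).

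Cox7a1 followed a like order of libraries at lower levels. It stood at 26.6, 47.1, 9.33, 17.8 and 40.9 FPKM in ApoE-/- 1 to 5 and at 27.1, 33.1 and 23.2 FPKM in NPRC-/-ApoE-/- 1 to 3, again lowest in ApoE-/- 3. Cox7a2, its general form, stood at 21.8, 58.6, 15.2, 27.9 and 34.1 against 42.3, 30.4 and 25.9 FPKM. Cox7a1 thus made up 38.1 to 55% of the pair. The log2 ratio of the pair was -0.22 ± 0.48 (SD, n = 5) and -0.23 ± 0.39 (SD, n = 3) by title, a difference of -0.01 (exact permutation p = 1). The plot of isoform levels shows that Cox8b crossed Cox8a while Cox7a1 and Cox7a2 stayed close together.

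**Figure D3:**
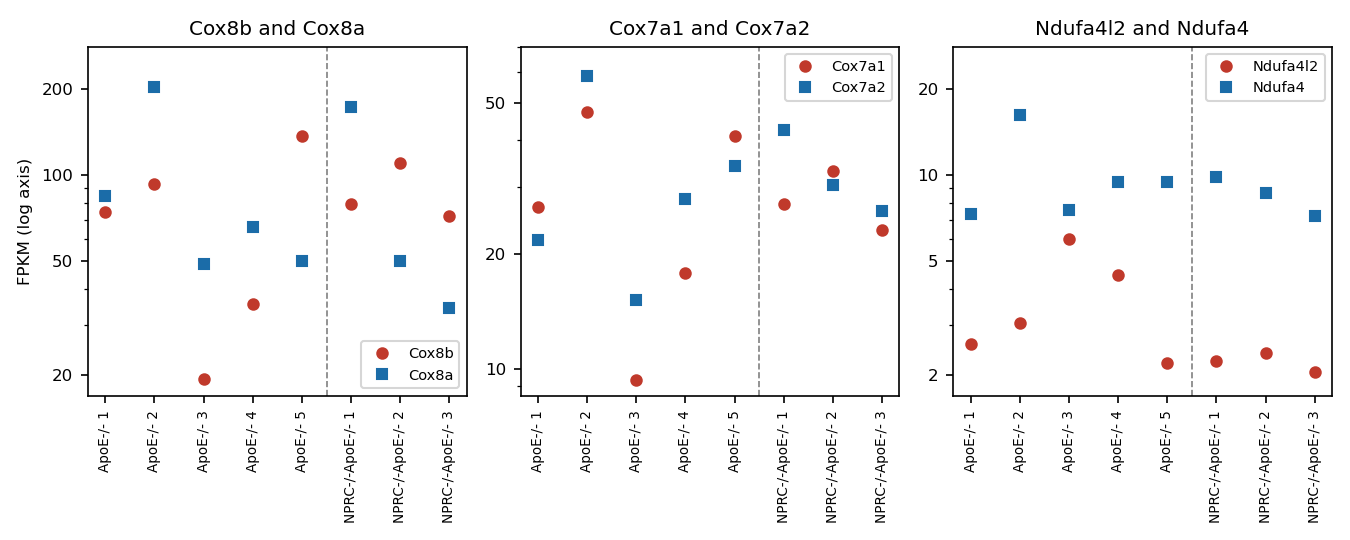
FPKM on a log axis of 3 pairs of related subunits in each library, with the libraries titled NPRC-/-ApoE-/- right of the dashed line, the form restricted to certain tissues or conditions as circles and the general form as squares. Cox8b exceeds Cox8a in ApoE-/- 5, NPRC-/-ApoE-/- 2 and NPRC-/-ApoE-/- 3, and Ndufa4l2 comes closest to Ndufa4 in ApoE-/- 3.

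In the other 4 pairs the general form was the larger in every library. Cox4i2, the form of subunit 4 known from lung, ran from 0.73 to 1.41 FPKM, or 1.4 to 3.1% of its pair. Cox6a2, the heart and muscle form, ran from 0 in ApoE-/- 2 to 0.89 FPKM in ApoE-/- 3, at most 0.906% of its pair. Cox6b2, a testis form, reached 0.85 FPKM, at most 1.3% of its pair. Ndufa4l2 made up 15.8 to 44.2% of its pair, most in ApoE-/- 3. The differences of the log2 ratios by title were 0.11, 0.36, -0.19 and -0.45 for these 4 pairs. No pair passed after Benjamini-Hochberg adjustment over the 6. The adjusted exact permutation p was 1 for each by title and at least 0.714 by genotype entry. However, 5 against 3 libraries allow a smallest p of 0.0357 before adjustment. At that floor a pair could not pass on its own after adjustment over the 6, so the adjusted result decides nothing for a single pair. Before adjustment the smallest exact permutation p was 0.393 by title (Ndufa4l2/Ndufa4) and 0.214 by genotype entry (Cox8b/Cox8a). Cox7b2 and Cox8c, both known from testis, were at 0 FPKM in all but 2 libraries and 1 library.

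Levels of Cox8b and Cox7a1 are read beside markers of tissues that use them. The 12 brown adipocyte markers, of which 11 were tested, deviated from their mean by 0.01, 0.48, -1.10, -0.66 and 0.23 log2 CPM in ApoE-/- 1 to 5 and by 0.35, 0.53 and 0.17 in NPRC-/-ApoE-/- 1 to 3. They were lowest in ApoE-/- 3 and ApoE-/- 4, as Cox8b and Cox7a1 were. Their summed level by title was 122 to 523 FPKM for ApoE-/- and 325 to 536 FPKM for NPRC-/-ApoE-/-, and 122 to 536 and 225 to 518 FPKM by genotype entry. Of the 10 markers of skeletal muscle, 5 were tested, and their 10 levels summed to 12.5, 1.54, 1.31, 1.1 and 16.8 FPKM in ApoE-/- 1 to 5 and to 11, 14.3 and 9.97 FPKM in NPRC-/-ApoE-/- 1 to 3. The cardiomyocyte markers summed to 4.08 to 12.7 FPKM, and Tnnt2, Tnni3, Nppa, Myl2, Myl7 and Mybpc3 did not reach the level for testing. No marker in these lists was at 0 over all libraries. The part of these tissues in the members' levels was not tested.

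Complex V, ATP synthase, is built from a catalytic head in the matrix and a ring of c subunits in the membrane. Atp5b, the catalytic beta subunit, stood at 93.0, 175, 68.1, 89.6 and 138 FPKM in ApoE-/- 1 to 5 and at 120, 115 and 91.0 FPKM in NPRC-/-ApoE-/- 1 to 3, with a log2 fold change by title of -0.02 (-0.63 to 0.59). Atp5a1, the alpha subunit, stood at 91.4, 163, 75.2, 90.5 and 124 against 122, 102 and 88.4 FPKM, with a log2 fold change of -0.03 (-0.55 to 0.49). Both were highest in ApoE-/- 2 and lowest in ApoE-/- 3, and the titled groups overlapped.

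Subunit c is made from 3 genes that encode the same mature protein. Atp5g1 stood at 1.8, 4.09, 3.15, 3.82 and 2.07 FPKM in ApoE-/- 1 to 5 and at 2.61, 1.87 and 1.38 FPKM in NPRC-/-ApoE-/- 1 to 3. Its log2 fold change was -0.61 (95% interval -1.35 to 0.13, unadjusted p = 0.102, adjusted p = 0.445, edgeR) by title and -0.12 (-1 to 0.75) by genotype entry. Without ApoE-/- 1 the value by title was -0.76 (unadjusted p = 0.036, edgeR). ApoE-/- 1 and ApoE-/- 5 lay within the other titled group. Atp5g2, the steadiest of these genes, stood at 13.2, 15.3, 13.5, 13.7 and 15.6 against 12.9, 14.7 and 15.1 FPKM, a span of 1.21-fold, with a log2 fold change of 0.02 (-0.26 to 0.30). Its row also holds the microRNA gene Mir688. Atp5g3 stood at 8.41, 14.9, 8.49, 10.2 and 10.7 against 10.0, 9.63 and 7.93 FPKM, with a log2 fold change of -0.17 (-0.60 to 0.25). In FPKM, ApoE-/- 2 was the highest library for Atp5g1 and Atp5g3 and the second for Atp5g2.

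Among the other subunits of complex V, Atp5mpl, a small membrane subunit, had a log2 fold change by title of -0.41 (-1 to 0.17), and Atp5d, the delta subunit of the central stalk, of -0.22 (-0.56 to 0.12). Without ApoE-/- 1 these were -0.54 (unadjusted p = 0.0373) and -0.31 (unadjusted p = 0.0336, edgeR). The row of Atp5d also covers the neighbouring gene Midn. Atp5k, the e subunit that joins dimers, did not follow the library order of most members. It stood at 4.54, 2.13, 2.3, 1.73 and 3.92 FPKM in ApoE-/- 1 to 5 and at 2.19, 4.95 and 4.11 FPKM in NPRC-/-ApoE-/- 1 to 3, with ApoE-/- 2 near the bottom. Atp5s, a factor that bears the name but is not part of the core enzyme, had the lowest mean level of the tested members, 0.959 FPKM. The median log2 fold change of complex V was -0.03 by title and 0.05 by genotype entry.

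Levels are compared between genes with care. FPKM here are divided by the merged exons of an assembled locus. In 64 of 87 members with 1 matching gene, that length was a constant multiple of the annotated exons, within 5%, but in 9 it was over 2 times larger, among them Ndufs4, Ndufs8, Ndufb9 and Atp5d. For a given count a longer length lowers the FPKM. The rows of Ndufs8, Ndufb9 and Atp5d also cover other genes, and that of Ndufs4 is an unannotated transcript. The FPKM of these rows thus do not give the level of the annotated gene alone. Comparisons between libraries keep the same length. In all, 8 members share a row with other genes. Leaving them out kept the count by title at 0 of 75 and the median at -0.01.

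Genes that work with the members were read in the same way. Of the 5 measured electron carriers and subunits outside the naming rule, Cyc1, the cytochrome of complex III, ran from 14.3 FPKM in ApoE-/- 3 to 32.6 FPKM in ApoE-/- 2, and Cycs, cytochrome c, from 5.19 to 17.1 FPKM in the same libraries. Atpif1, the inhibitor of ATP synthase, was the only 1 of these 5 with an unadjusted p under 0.05 by title, where 13.6% of all rows passed. It stood at 1.59, 2.29, 2.32, 2.35 and 1.66 FPKM in ApoE-/- 1 to 5 and at 1.34, 1.41 and 1.45 FPKM in NPRC-/-ApoE-/- 1 to 3. The titled groups thus did not overlap for Atpif1, which held for 7.25% of all rows. The log2 fold change of Atpif1 was -0.53 by title (SE 0.22, unadjusted p = 0.0394, adjusted p = 0.343, edgeR) and 0.05 by genotype entry. The 13 subunits encoded by mitochondrial DNA were not analysed here.

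In 7 further lists no gene was past the threshold. By title, where 13.6% of all rows passed, 0 of 48 assembly factors, 0 of 77 mitochondrial ribosomal proteins, 0 of 13 genes of the tricarboxylic acid cycle, 0 of 12 genes of coenzyme Q synthesis, 0 of 15 regulators of mitochondrial biogenesis, 0 of 9 carriers and uncoupling proteins and 0 of 3 supercomplex factors had an unadjusted p under 0.05 in edgeR, and by genotype entry, where 1.31% of all rows passed, it was 0 in each list as well. Their median log2 fold changes by title were 0.01, -0.05, 0.13, 0.05, 0.10, -0.22 and 0.01, beside -0.01 over all rows. The smallest p values by title belonged to Ucp2, an uncoupling protein relative, at -0.61, and Slc25a5, an ADP/ATP carrier, at -0.36 among the carriers, and to Mrpl37 at 0.28 and Mrpl1 at -0.27 among the ribosomal proteins. Atpaf1 at -0.36 and Sdhaf4 at -0.72 led the assembly factors, Suclg2 at 0.25 and Ogdh at 0.33 the cycle, Coq9 at 0.31 and Coq2 at 0.15 coenzyme Q synthesis, Pprc1 at -0.56 and Ppargc1a at 0.67 the regulators, and Higd1a at 0.19 and Higd2a at -0.07 the supercomplex factors, none past the threshold.

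Of the regulators of the respiratory genes, 5 are given by library. Ppargc1a, a coactivator of mitochondrial biogenesis, stood at 1.95, 2.48, 0.55, 0.6 and 1.61 FPKM in ApoE-/- 1 to 5 and at 1.4, 1.82 and 3.28 FPKM in NPRC-/-ApoE-/- 1 to 3, lowest in ApoE-/- 3 and 4. Esrra, which encodes ERRA, ran from 2.37 FPKM in NPRC-/-ApoE-/- 3 to 5.19 FPKM in NPRC-/-ApoE-/- 2. Nrf1 ran from 1.5 to 2.44 FPKM, Gabpa from 2.42 to 4.57 FPKM and Tfam, the transcription factor of mitochondrial DNA, from 1.8 to 2.85 FPKM, with log2 fold changes by title of 0.00, -0.04 and -0.19.

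Of the other mitochondrial lists, 4 are shown by library beside the members. In ApoE-/- 2 the tricarboxylic acid cycle deviated by 0.54, coenzyme Q synthesis by 0.33, assembly factors by 0.22 and mitochondrial ribosomal proteins by 0.20 log2 CPM, and in ApoE-/- 3 by -0.73, -0.27, -0.15 and -0.10. All 4 lists were highest in ApoE-/- 2, as the members were, but mitochondrial ribosomal proteins were lowest in ApoE-/- 1 (-0.15). Of the lists not shown, carriers and uncoupling proteins were highest in ApoE-/- 2 (0.32). Regulators of mitochondrial biogenesis were highest in ApoE-/- 5 (0.29, with 0.24 in ApoE-/- 2), and supercomplex factors in ApoE-/- 4 (0.20, with 0.14 in ApoE-/- 2). Adipocyte markers stood at 0.93 in ApoE-/- 2 and -1.02 in ApoE-/- 3, their highest and lowest values. They summed by title to 139 to 607 FPKM for ApoE-/- and 230 to 406 FPKM for NPRC-/-ApoE-/-, and to 139 to 607 and 230 to 421 FPKM by genotype entry, and 9 of 10 were tested. Their part in the members' levels was not tested.

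**Figure D4:**
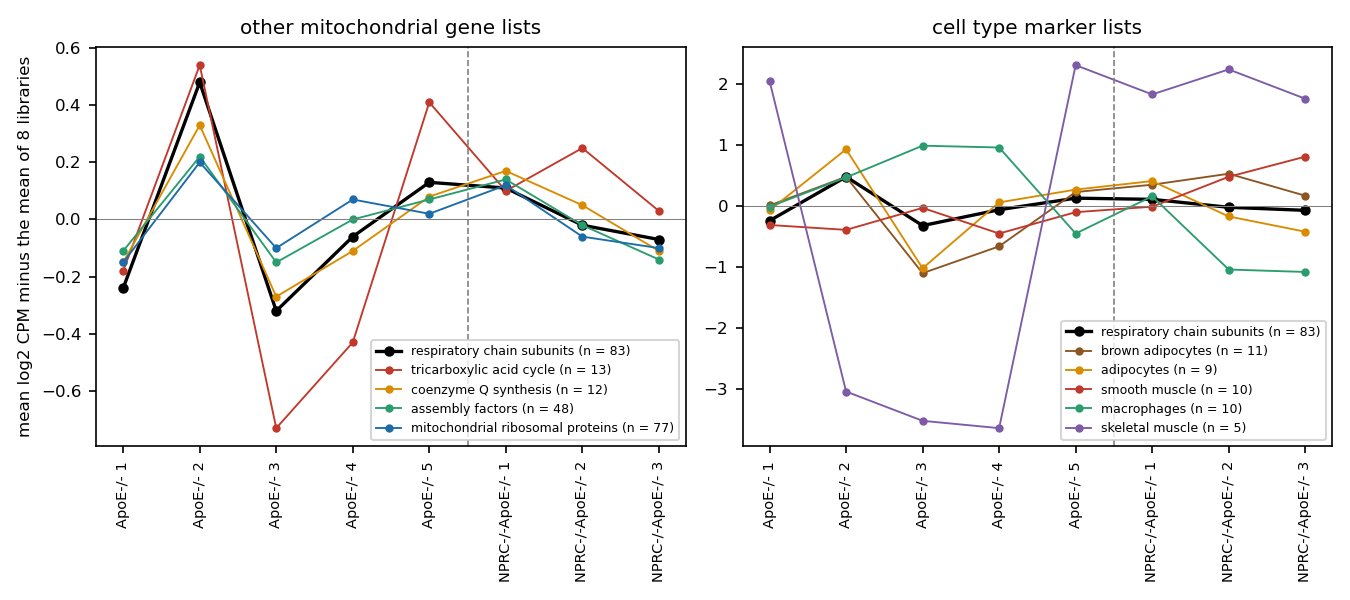
Mean deviation in log2 CPM from the mean of the 8 libraries for the members (black) beside 4 other mitochondrial gene lists (left) and 5 lists of cell type markers (right), with the libraries titled NPRC-/-ApoE-/- right of the dashed line. The members reach 0.48 in ApoE-/- 2 and -0.32 in ApoE-/- 3, and the skeletal muscle markers fall below -3 in ApoE-/- 2, 3 and 4.

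Some cell type markers differed by title. Of 10 smooth muscle markers, 9 were higher in the libraries titled NPRC-/-ApoE-/- at an unadjusted p of 0.05 in edgeR, where 6.51% of all rows were, and their median log2 fold change was 0.73. Cnn1, a contractile protein, had a log2 fold change of 0.66 (SE 0.17, unadjusted p = 0.00342, adjusted p = 0.255). Of 10 macrophage markers 4 were lower, where 7.13% of all rows were, with a median of -1.03, among them Csf1r at -0.93 (SE 0.28, adjusted p = 0.285). By genotype entry 0 of 10 were higher in the first list and 0 of 10 lower in the second, against 0.614% and 0.697% of all rows. By title, the sum of smooth muscle markers was 1350 to 1810 FPKM for ApoE-/- and 1750 to 3000 FPKM for NPRC-/-ApoE-/-, and that of macrophage markers 606 to 1840 and 295 to 970 FPKM. Their part in the levels of the members was not tested.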

How the data were processed

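RNA of whole aortas (poly(A) selected, dUTP libraries, paired-end reads) was measured in 8 libraries. The authors used HISAT2 for mapping and StringTie for assembly, and the submitters' processing notes name cutadapt 1.9, FastQC and GRCm38. The authors deposited whole-number counts per assembled locus, not normalized, and FPKM values, normalized to locus length and mapped fragments. Whether counting used strand is not given in the sources used here. The table has 48607 rows, and 0 of its per-sample columns lack a sample.

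For a symbol in several rows the row with the most counts was used. The 20506 rows that reached 1 FPKM in 3 or more libraries entered the test on counts, edgeR 4.0.16 (R 4.3.3, TMM scaling, glmQLFit and glmQLFTest), with Benjamini-Hochberg adjustment over all rows, after a test on simulated data. No adjusted value below 0.05 arose, so calls use an unadjusted p of 0.05, as the authors' threshold does. Log2 CPM has a prior count of 2. Isoform ratios add 0.01 FPKM and were tested by two-sided exact permutation (scipy 1.17.1). Alternatives used DESeq2 1.42.0 and limma 3.58.1. Genes named are, per complex, the 2 most abundant, the 3 with the smallest p by title and the 1 by genotype entry, all subunits of complex II, the isoform pairs, the subunit c genes and, from each pathway list, the 2 with the smallest p by title. Others were named after their values were seen. 1 member is not reported here by name. The members and lists were chosen with earlier results of these data known. Library totals of 62969165 to 86693276 limit counting error to little beside the spread between libraries for members with high counts. Some tested members had few counts, with 4 to 103 for Ndufs6b, 17 to 53 for Cox6c2 and 18 to 128 for Ndufb4c. The methods name whole aortas of 5 mice per genotype, but only 3 libraries were titled NPRC-/-ApoE-/-. Beyond the labels, nothing ties each library to its own mouse. The p-values set the difference between groups against the spread between these libraries.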

Additional observations from a re-analysis of the deposited data

Results flagged for a closer look

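Among the named members, the isoform ratios and the means of the complexes, 94 groups of 5 libraries were searched for a library far from the other 4 by Dixon's criterion, and 6 were found where chance gives about 4.7. Values are log2 CPM unless stated. Among the libraries titled ApoE-/-, Atp5d stood at 6.90 in ApoE-/- 1, with the next at 7.36, and Atp5g2 at 4.77 in the same library, with the next at 4.97. Among the libraries entered as ApoE-/-, Cox8b stood at 3.20 in ApoE-/- 3, with the next at 4.97, and Ndufa4l2 at 3.12 in ApoE-/- 3, above the next at 2.00. The log2 ratio of Cox6a2 to Cox6a1 was -14.02 in ApoE-/- 2, where Cox6a2 had no count, and the next lowest was -8.78 among the libraries titled ApoE-/- and -8.27 among those entered so.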

How the results depend on the processing

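The count of members with an unadjusted p under 0.05 stayed at 0 by title under the other scalings, filters and pseudocounts. It also stayed at 0 with DESeq2, with the summed rows and with Ndufs4 taken from its annotated row. It became 3 with limma-voom quality weights (Ndufb3, Ndufb7 and Ndufs6b, all higher, where 26.4% of all rows passed). Leaving out 1 library gave 0 to 4, with 4 without ApoE-/- 1 (Atp5d, Atp5g1 and Atp5mpl lower, Ndufs6b higher), 3 without NPRC-/-ApoE-/- 1 (Ndufb7 and Ndufs6b higher, Ndufs8 lower) and 2 without ApoE-/- 5 (Ndufb3 higher, Ndufa4l2 lower), where 13.3, 21.6 and 18.7% of all rows passed. By genotype entry it was 1 with DESeq2 (Cox8a, where 1.89% of all rows passed) and 0 to 3 without 1 library: 3 without ApoE-/- 4 (Cox5b, Ndufa12 and Ndufa5, with 3.56% of all rows), 2 without ApoE-/- 2 (Cox7b and Ndufa1, with 1.11%) and 1 (Cox8a) without ApoE-/- 3 (1.34%) or without NPRC-/-ApoE-/- 2 (2.31%). No adjusted p of a member passed under any of these. The cause was not tested.

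The median log2 fold change by title ran from -0.17 to 0.13, less than the SD of 0.27 between the libraries' member means. The lowest came from the libraries whose labels agree, ApoE-/- 1 to 3 against NPRC-/-ApoE-/- 3 alone. The highest came without ApoE-/- 2. Of 35 named members under all alternatives by title, 9 values of 729 passed the threshold, and none of those changed sign. Signs of values not past the threshold changed most, in 13 cases each, without ApoE-/- 2 and without NPRC-/-ApoE-/- 3. The difference of the isoform ratios by title for Cox6b2/Cox6b1 became 0.25 by genotype entry and 0.13 with 1 added to each FPKM, and for Cox6a2/Cox6a1 it ranged from -0.88 without ApoE-/- 2 to 1.00 without NPRC-/-ApoE-/- 3.

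The replicate numbers did not pair the libraries: the deviations of same-numbered libraries correlated at -0.31, -0.11 and 0.007. With the replicate block over the 6 libraries numbered 1 to 3, 0 members were called and the median was 0.04, against 0 and -0.02 in the same 6 without it. Depth limits Cox6a2, Cox7b2 and Cox8c, which had few or no counts, and Ndufs6b, which had 4 counts in ApoE-/- 3.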
